A study of Homo sapiens with 6 samples.

Results

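The nuclear genes of the mitochondrial respiratory chain were compared between ARPE-19 cells carrying a control lentivirus and ARPE-19 cells carrying a PDZK1 overexpression lentivirus. ARPE-19 is a human retinal pigment epithelial cell line, and PDZK1 encodes a scaffold protein that anchors membrane proteins. Members were chosen by symbol: NDUFA, NDUFB, NDUFC, NDUFS or NDUFV followed by a digit for complex I, SDHA to SDHD for complex II, UQCR names for complex III, COX4 to COX8 names for complex IV and ATP5 names for complex V, the ATP synthase. The rule found 89 of the 21314 listed entries, of which 39 belonged to complex I, 4 to complex II, 9 to complex III, 17 to complex IV and 20 to complex V. It took in NDUFA4 and NDUFA4L2, whose products are now placed with complex IV, and 2 readthrough entries, NDUFC2-KCTD14 and ATP5MF-PTCD1, which join the exons of neighbouring genes. It left out CYC1 and NDUFAB1, which encode subunits under other names, and no gene of the mitochondrial genome was listed, so the subunits encoded there were not measured.

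Complex I passes electrons from NADH, and complex II passes electrons from succinate, to ubiquinone in the inner mitochondrial membrane. Complex III hands them on to cytochrome c and complex IV to oxygen, and the protons pumped on the way drive the ATP synthase. The retinal pigment epithelium depends strongly on oxidative phosphorylation, and complex II is the only one of these complexes that is also an enzyme of the citric acid cycle and that has no subunit from the mitochondrial genome.

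Virus had been added to both groups at a multiplicity of infection of 10, followed by selection in puromycin at 4 µg/ml and by 48 h in 37.5 mM glucose. By their labels the groups differed in the insert of the virus alone, and no normal-glucose library entered the comparison. The medium thus held high glucose in the controls too. Each group held 3 libraries. The labels do not say that these came from separate cultures or transductions, so p-values measure only the spread between these libraries, which may be technical. Total counts ran from 27970618 (control replicate 3) to 32804567 (PDZK1 replicate 2), and the members took 0.744% to 0.809% of them. PDZK1 itself had 19, 18 and 23 counts in control replicates 1 to 3 and 3020, 2541 and 2828 counts in PDZK1 replicates 1 to 3. It rose by 7.03 on the log2 scale (SE 0.131, edgeR adjusted p 8.16e-09), and vector and endogenous transcripts cannot be told apart in this count. Control replicate 3 stood apart from the other control libraries on the second principal component (-30.0 against 14.5 and 18.8), which held 21.1% of the variance. Several counts below are therefore given with and without it, and the others include it. Of 16 retinal pigment epithelium markers, KRT8, KRT18, OTX2 and MITF were expressed at means of 579, 506, 23.2 and 8.01 FPKM (fragments scaled by transcript length and by the fragments of the library). RPE65 and TTR had no count in any library, and 4 of the 16 lay at or under 3 counts in all libraries. The summed FPKM of these markers was 1031 to 1184 in the control and 1082 to 1223 in the PDZK1 libraries. KRT8 and KRT18 made up most of this sum, and 11 of the 16 markers were high enough to test. BEST1 had 11459 counts in PDZK1 replicate 1 and 124 to 181 in the others. The summed FPKM of 8 photoreceptor markers was 5.17 to 7.38 in the control and 5.69 to 7.81 in the PDZK1 libraries, that of 6 endothelial markers 0.814 to 0.886 and 0.617 to 0.671, that of 6 immune markers 70.8 to 85.8 and 66.6 to 68.3, and that of 7 fibroblast and mesenchymal markers 2107 to 2539 and 2029 to 2249. CRX, GNAT1, CDH5, PTPRC, CD3E, COL1A2 and THY1 were at 0, CD68 made up nearly all of the immune sum and VIM most of the mesenchymal one. Single mesenchymal markers did not all follow that sum: 4 of 5 tested had a log2 fold change above 0, with a median of 0.20, and 3 of them (FAP, COL1A1 and PDGFRB) had an unadjusted p under 0.05 with edgeR but an adjusted p of 0.109 to 0.180. Their median deviated by -0.06, -0.07 and -0.07 log2 units in the control libraries against 0.15, 0.04 and 0.14 in the PDZK1 libraries, without overlap, and without control replicate 3 edgeR called 1 of the 5. The part of these markers in the results was not tested.

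Respiratory chain genes lie on many chromosomes and are known to share promoter motifs for NRF1, for GABPA and other ETS factors, and for YY1. RefSeq promoter windows on GRCh38.p14, from 250 bases before to 50 bases after the gene start, were found for 72 of the 89 members and were searched on both strands. The NRF1 motif, whose letters are the capitals of the SDHA sequences below with its middle base free, was held by 17 of the 72 members (23.6%), against 6.98% of the 27305 genes with a window and 12.9% of the 10993 of these that were tested for expression. The ETS motif CCGGAAG was held by 21 members (29.2%, against 12.2% and 21.7%), and the YY1 motif AAGATGGC by 12 members (16.7%, against 3.52% and 6.16%). A match to one motif is not a match to another, although the ETS and YY1 motifs can run into each other through the letters AAG. At least 1 of the 3 was held by 41 of 72 members (56.9%), against 5464 of all 27305 genes with a window and 35.3% of those tested. The matches below are shown for the complex II genes, on which the expression results turn, and for UQCRH and COX4I1, the most abundant transcripts of complexes III and IV. Distances are from the RefSeq start of each window, which can differ from the ends of the gene coordinates given further below, taken from GENCODE release 29. By the GENCODE coordinates the ETS motif of SDHB, for one, lies within the gene. Each sequence is 30 bases of the gene's own strand, with the motif or its reverse complement in capitals.
SDHA, NRF1 motif 166 bases before the start (chr5:218144-218173, plus strand): ggtccgctttGCGCAGGCGCggcgccccca
SDHA, NRF1 motif 117 bases before the start (chr5:218193-218222, plus strand): gtggcatggtGCGCAGGCGCgatgtccccc
SDHA, NRF1 motif 68 bases before the start (chr5:218242-218271, plus strand): ccggcgtggtGCGCAGGCGCggtatccccc
SDHA, NRF1 motif 19 bases before the start (chr5:218291-218320, plus strand): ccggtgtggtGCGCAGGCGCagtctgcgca
SDHB, ETS motif 128 bases before the start (chr1:17054142-17054171, minus strand): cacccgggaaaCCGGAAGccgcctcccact
SDHB, YY1 motif 10 bases after the start (chr1:17054004-17054033, minus strand): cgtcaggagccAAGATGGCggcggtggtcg
SDHD, NRF1 motif 110 bases before the start (chr11:112086753-112086782, plus strand): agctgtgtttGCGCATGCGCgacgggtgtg
SDHD, ETS motif, reverse complement, 77 bases before the start (chr11:112086785-112086814, plus strand): ccgcctctcgaCTTCCGGttcacccagcat
UQCRH, ETS motif, reverse complement, 46 bases before the start (chr1:46303641-46303670, plus strand): agtgtgccgcaCTTCCGGccagatcgccgg
COX4I1, ETS motif, reverse complement, 2 bases after the start (chr16:85799686-85799715, plus strand): ggccttgctctCTTCCGGtcgcgggacacc

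SDHA held the NRF1 motif 4 times at a regular spacing, and SDHB and SDHD each held 2 different motifs, while no window was found for SDHC. By complex, at least 1 motif was held by 16 of 34 members of complex I, 3 of 3 of complex II, 6 of 7 of complex III, 6 of 14 of complex IV and 10 of 14 of complex V. A match is a run of letters and not a measured binding site.

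The levels of the subunit transcripts spanned a wide range within each complex. In FPKM, the scale that allows genes to be compared, the median member above 1 FPKM stood at 50.4 in complex I, 61.4 in complex II, 65.7 in complex III, 116 in complex IV and 100.3 in complex V. ATP5F1B, the catalytic beta subunit of the ATP synthase, was the most abundant of all members at a mean of 493 FPKM over the 6 libraries, with a range of 473 to 532. COX4I1, which encodes a structural subunit around the catalytic core of complex IV, followed in its complex at 298 FPKM (292 to 311), UQCRH, the hinge protein of complex III, at 172 FPKM (150 to 182), and NDUFS5, an accessory subunit of complex I, at 157 FPKM (152 to 160). SDHC, a membrane anchor of complex II, led its complex at 124 FPKM (118 to 132). The lowest members above 1 FPKM, from complex I to complex V, were NDUFV3 at 6.78, SDHB at 41.6, UQCRHL at 3.73, COX7A1 at 3.19 and ATP5F1E at 18.2 FPKM. The FPKM of some long or multi-transcript genes depends on the transcript length used: counts over FPKM imply a length above the longest coding transcript of GENCODE release 29 for 23 of 82 members, among them ATP5F1A, NDUFV3 and ATP5F1E, though never above 1.5 times that length.

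**Figure D1:**
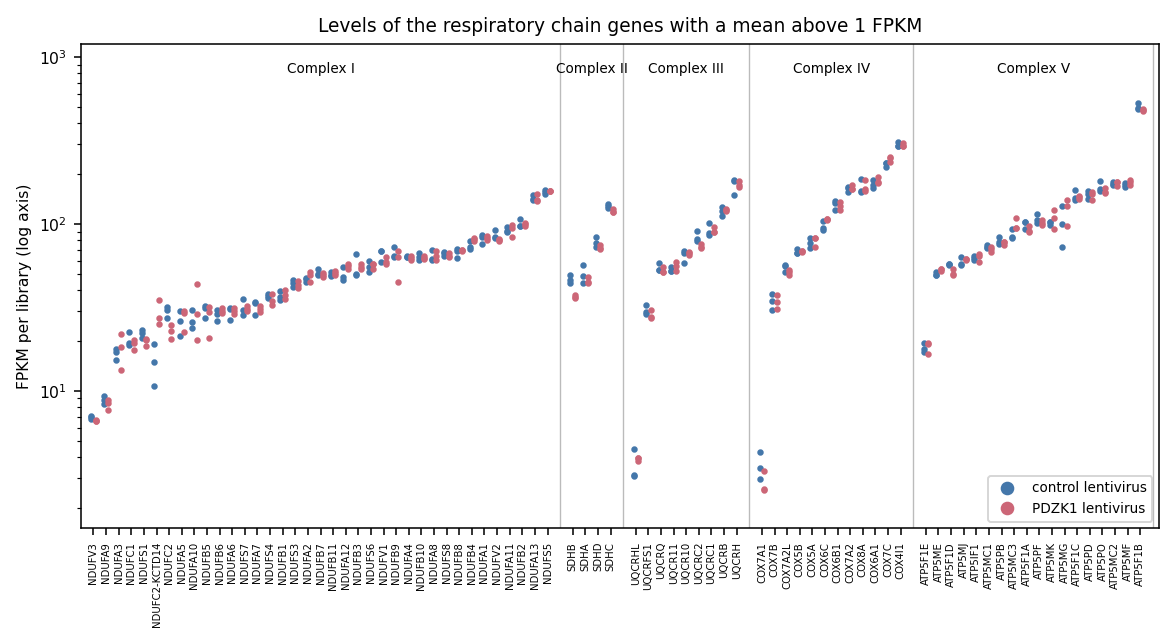
FPKM of 80 respiratory chain genes with a mean above 1 FPKM, one column a gene, ordered by mean level within each complex on a log axis; blue points are the 3 control libraries and red points the 3 PDZK1 libraries. The groups lie on top of each other for most genes, and ATP5F1B at 493 FPKM tops the plot while COX7A1 (3.19 FPKM) and UQCRHL (3.73 FPKM) lie at its foot.

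Where a subunit has tissue isoforms, the general form was found and the heart, muscle, lung or testis form was absent or low. COX4I2, COX6A2, COX7B2 and COX8C had no count in any of the 6 libraries, which allows at most 3 counts a library, or 0.0915 to 0.109 CPM (counts scaled to library size). COX6B2 had 4 counts in PDZK1 replicate 3 alone, NDUFA4L2 had 3 counts in PDZK1 replicate 1 alone and ATP5MGL had 2 counts in PDZK1 replicate 3 alone. Their counterparts COX4I1, COX6A1, COX6B1, COX7B, COX8A and NDUFA4 stood at 298, 177, 129, 34.3, 167 and 63.2 FPKM. COX7A2 exceeded the muscle form COX7A1 51.3 times in FPKM, and UQCRH exceeded its intronless relative UQCRHL 46.1 times. The 3 genes for the identical c subunit of the ATP synthase rotor were all expressed, ATP5MC2 at 175 FPKM, ATP5MC3 at 93.0 and ATP5MC1 at 71.9. The 7 members at or near 0 and the readthrough entry ATP5MF-PTCD1, described below, were the 8 too low to test. Numbered pseudogenes are annotated for 45 of the 89 members (159 in all, with 17 for COX6C and 12 each for NDUFA5 and NDUFB4), and reads of such near-identical copies may be split among them.

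The main comparison asked whether PDZK1 overexpression in high glucose goes with a change in these transcripts, and for nearly all members the difference was small. Of the 81 members tested, 1 (SDHB) passed an edgeR adjusted p of 0.05 over all genes (1.23%), against 3.83% of the 13645 genes tested. It was lower in the PDZK1 libraries, the side that held 2.41% of all genes, and no member was called on the higher side, which held 1.41%. DESeq2 called 4 members (4.94%, against 5.24% of 15379 genes), namely SDHB, NDUFC2, NDUFC2-KCTD14 and UQCRC2. The 95% interval of the fold change lay within 1.5-fold in both directions for 79 of 81 members (97.5%, against 78.4% of all genes), the exceptions being NDUFC2-KCTD14 and COX7A1. For 70 members (86.4%, against 48.6%) it lay within 1.2-fold. The members were more abundant than the tested genes as a whole (median 67.6 against 29.4 CPM) and their median SE was smaller (0.0561 against 0.0748 on the log2 scale). In these bulk libraries a change in the number of cells of a kind and a change of RNA per cell cannot be told apart.

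The median log2 fold change was -0.01 over the members and -0.00 over all genes tested. By complex it was -0.01 for complex I (14 higher, 24 lower of 38), -0.10 for complex II (0 higher, 4 lower), 0.01 for complex III (5 higher, 4 lower), 0.00 for complex IV (8 higher, 4 lower) and -0.02 for complex V (8 higher, 10 lower). At an unadjusted p under 0.05, edgeR gave 14 members (17.3%, against 17.5% of all genes), 11 lower (13.6%, against 9.37%) and 3 higher (3.70%, against 8.13%). The groups did not overlap for 14 members that were lower (17.3%, against 12.3%) and 2 that were higher (2.47%, against 11.6%). This lean to the lower side was not seen without control replicate 3, where 46 members were higher and 35 lower, 7 were lower (8.64%, against 1521 of 13844 genes) and 9 higher (11.1%, against 9.52%) at an unadjusted p under 0.05, and the groups did not overlap for 15 lower (18.5%, against 20.2%) and 17 higher members (21.0%, against 19.1%).

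**Figure D2:**
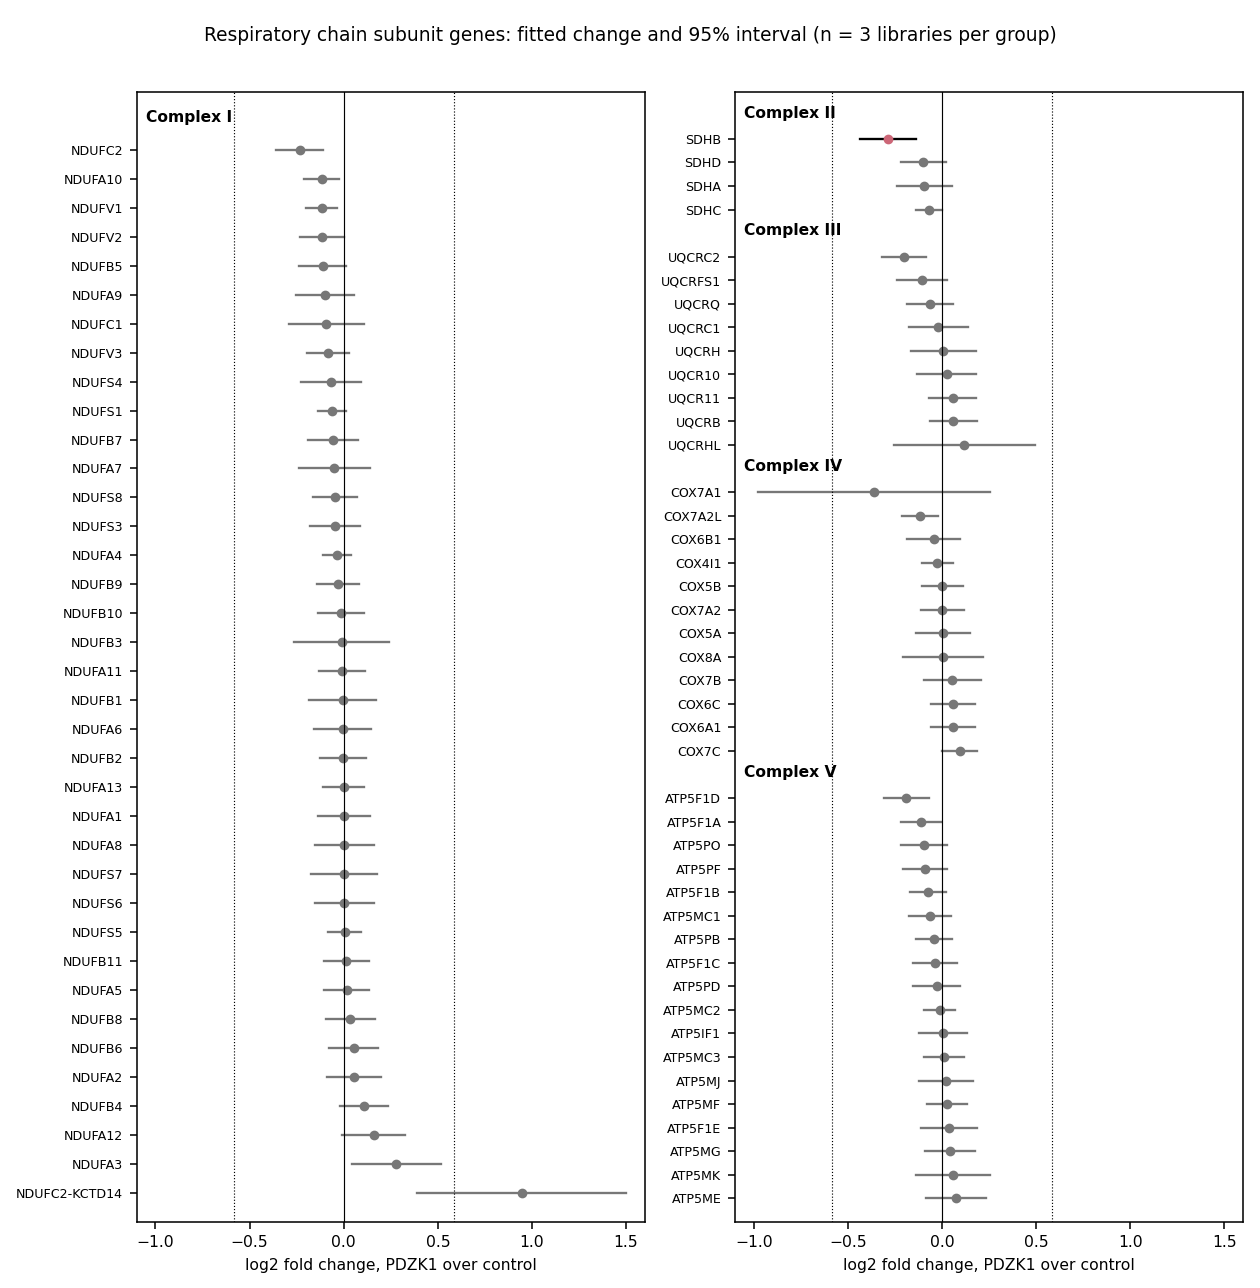
Fitted log2 fold change of 80 of the 81 tested members, PDZK1 over control, with its 95% interval, by complex and in order of size; dotted lines mark 1.5-fold either way and the red point is the member past the threshold. Most intervals include 0, those of SDHB (-0.28), NDUFC2 (-0.23), UQCRC2 (-0.20), ATP5F1D (-0.19), NDUFA3 (0.28) and the readthrough entry NDUFC2-KCTD14 (0.95) are among those that do not, and that of COX7A1 is wide.

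The library values show where control replicate 3 lay. The median member deviated from its own mean over the 6 libraries by -0.04, -0.01 and 0.08 log2 units in control replicates 1 to 3 and by -0.03, 0.03 and -0.02 in PDZK1 replicates 1 to 3, while all genes tested deviated by no more than 0.01. Control replicate 3 was the highest library for complexes I, II, III and V, and PDZK1 replicate 2 was level with it for complex IV. Of the 5 complexes, only complex II, with 4 genes, had groups that separated, at 0.02, 0.04 and 0.18 in the control libraries against -0.05, -0.05 and -0.06 in the PDZK1 libraries. Within complex I, the 7 core subunits described below, a group chosen after the values were seen, separated too. They lay at 0.03, 0.01 and 0.09 against -0.06, -0.02 and -0.06.

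**Figure D3:**
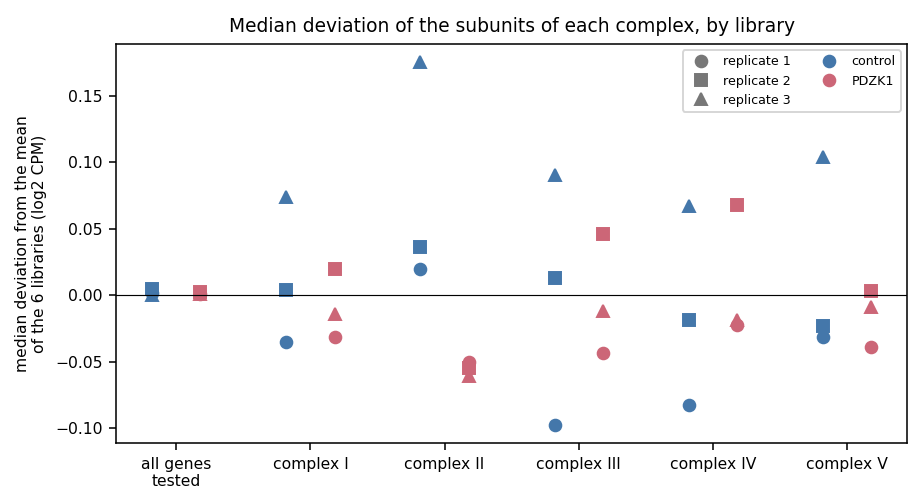
Median deviation of the tested genes of each complex from their mean over the 6 libraries, in log2 CPM; colour marks the group and the shape of the point the replicate. Control replicate 3 is the highest or next to highest library in all 5 complexes, and complex II is the one complex in which every control library lies above every PDZK1 library.

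Complex II held the one member past the threshold, SDHB, and its other genes lay a little lower in the PDZK1 libraries without passing. SDHB (ENSG00000117118, chr1:17018722-17054170, minus strand) encodes the iron-sulfur subunit that carries electrons from the flavin of SDHA to ubiquinone. Its level was 48.5, 48.4 and 54.8 CPM in control replicates 1 to 3 and 39.9, 44.0 and 40.5 CPM in PDZK1 replicates 1 to 3. Every PDZK1 library lay below every control library, with means of 50.6 ± 3.69 CPM for control and 41.5 ± 2.19 CPM for PDZK1 (SD, n = 3 each). SDHB fell by 17.9%, or -0.28 on the log2 scale with an SE of 0.0665 and a 95% interval of -0.43 to -0.14, at an edgeR adjusted p of 0.0479. The call is at the edge of the threshold: it was lost when any 1 of the 6 libraries was left out (adjusted p 0.0568 to 0.189), with limma-voom (0.0693) and with the replicate number as a block (0.140), and kept with DESeq2 (0.0143), while the log2 fold change stayed between -0.34 and -0.22. SDHB overlaps no annotated gene and has no numbered pseudogene.

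SDHA, the flavoprotein that oxidises succinate, stood at 132, 126 and 152 CPM in the control and 129.98, 125 and 129 CPM in the PDZK1 libraries. The groups overlapped, and its log2 fold change was -0.09 (95% interval -0.24 to 0.05, adjusted p 0.513 with edgeR). SDHC, one of the anchors that bind heme and ubiquinone, stood at 158 CPM in each control library and at 152, 149 and 152 CPM in the PDZK1 libraries. These groups did not overlap, yet the log2 fold change of -0.07 (SE 0.0304) had an edgeR adjusted p of 0.281. SDHD, the other anchor, had 104, 110.3 and 119 CPM against 102, 109 and 101 CPM, with overlapping groups and a log2 fold change of -0.10 (adjusted p 0.380 with edgeR). All 4 genes of the complex were thus lower on average, and the summed FPKM of the complex was 302 ± 16.5 in the control and 274 ± 4.19 in the PDZK1 libraries (SD, n = 3 each). The 4 genes stayed lower without control replicate 3, with a median log2 fold change of -0.06 in place of -0.10.

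SDHB also lay in a stretch of chromosome 1 whose other genes leaned the same way. Of the 20 nearest tested genes, 10 on each side, 15 were lower in the PDZK1 libraries, and their median log2 fold change was -0.11. Those past the edgeR threshold were RCC2 (-0.27), a regulator of chromosome condensation, and ARHGEF10L (-0.37), a guanine nucleotide exchange factor, both lower, and IFFO2 (0.38), which was higher. By library the median neighbour deviated by 0.07, 0.06 and 0.08 log2 units in control replicates 1 to 3 and by -0.08, -0.05 and -0.04 in PDZK1 replicates 1 to 3, and SDHB itself by 0.08, 0.08 and 0.26 and by -0.20, -0.06 and -0.17. For the 81 tested members, the median of the neighbours ranged from -0.17 to 0.08, and that of SDHB was the next largest in size after that of UQCRHL, a nearby gene of chromosome 1 whose neighbours can include some of the same genes and which itself had a value above 0 (0.12). SDHA of the same complex was close behind SDHB, with a median of -0.10 over the 11 neighbours counted for it, 8 of them lower. Whether SDHB or SDHA moved with its surroundings or by itself was not tested.

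**Figure D4:**
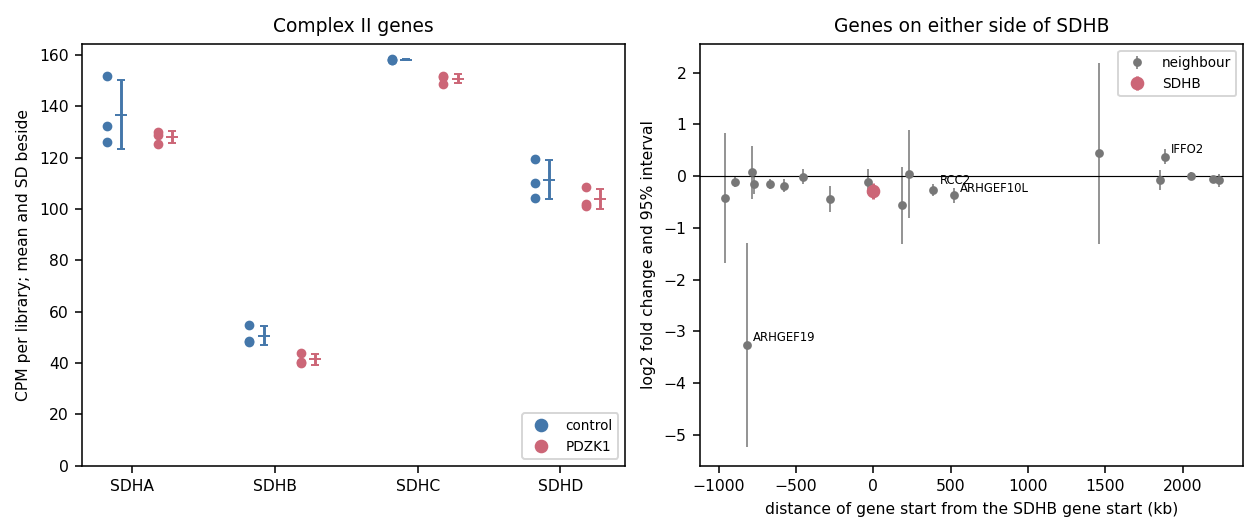
Left, CPM of the 4 complex II genes in each library (points) with the mean and SD of the group beside them; right, fitted log2 fold change with its 95% interval of SDHB (red) and its 20 nearest tested genes (grey) against the distance of their starts in kilobases. SDHB is the gene of the 4 with the widest gap between groups relative to its level (50.6 against 41.5 CPM), and 15 of its 20 neighbours lie below 0, the lowest being ARHGEF19 (-3.26, edgeR adjusted p 0.0803).

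None of the 38 tested complex I members passed the edgeR threshold, and DESeq2 called 2, NDUFC2 and NDUFC2-KCTD14. At an unadjusted p under 0.05 with edgeR there were 7, against 17.5% of all genes. Of these, 5 were lower (against 9.37%) and 2 higher (against 8.13%), the latter being NDUFA3 and the readthrough entry NDUFC2-KCTD14. The core subunits are those of the catalytic arm with its flavin and the iron-sulfur clusters along which electrons travel. This group was chosen after the values were seen, so the shares of all genes are no independent yardstick for it. Among the core subunits, 6 of 7 had a log2 fold change below 0, with a median of -0.06. The groups did not overlap for 4 of 7, all lower, against 12.3% of all genes. Without control replicate 3, 6 of 7 were again lower and 4 lower without overlap, against 20.2% of all genes, with a median of -0.05. NDUFV1, which binds NADH and the flavin, stood at 109.5, 109 and 114 CPM in the control and 100.4, 102 and 104 CPM in the PDZK1 libraries, a log2 fold change of -0.12 (SE 0.0363 and adjusted p 0.120 with edgeR). Every PDZK1 library lay below every control library by a few percent. NDUFV2 (-0.12) and NDUFS1 (-0.06), which carry further iron-sulfur clusters, also had groups that did not overlap, NDUFS3 (-0.04) and NDUFS8 (-0.05) had groups that did, and NDUFS7 was level (0.00).

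The 29 accessory subunits of complex I, which surround the core and are needed for its assembly and stability, had a median log2 fold change of -0.01, with 12 higher and 17 lower (18 higher and 11 lower without control replicate 3). NDUFA10, an accessory subunit of the membrane arm, stood at 116, 110.0 and 110.3 CPM in the control and 100.2, 103 and 107 CPM in the PDZK1 libraries (log2 fold change -0.12, adjusted p 0.165 with edgeR). The highest log2 fold change was that of NDUFA3, at 10.1, 11.2 and 11.7 CPM against 14.2, 11.9 and 13.9 CPM (0.28, 95% interval 0.04 to 0.52, adjusted p 0.1999 with edgeR). These groups lay close without overlap, 5 pseudogenes of NDUFA3 are annotated, and the gene overlaps TFPT on the other strand. NDUFA12 (0.16) and NDUFB4 (0.11) came next, with overlapping groups. NDUFS5, the most abundant complex I transcript, had nearly the same level in both groups, 89.6 ± 2.22 and 89.9 ± 0.404 CPM (SD, n = 3 each), with a log2 fold change of 0.00 and a 95% interval of -0.08 to 0.09. NDUFV3, the least abundant by FPKM, stood at 43.6, 41.6 and 42.9 CPM and 39.9, 40.2 and 41.0 CPM, a log2 fold change of -0.08 without overlap (adjusted p 0.443 with edgeR). NDUFA4, the member with a complex I name that belongs with complex IV, had a log2 fold change of -0.04.

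The largest changes with a complex I name came from one locus on chromosome 11, where reads can be assigned to NDUFC2 or to the readthrough entry NDUFC2-KCTD14. NDUFC2 (ENSG00000151366, chr11:78068304-78080219, minus strand), a membrane-arm accessory subunit, stood at 59.0, 55.2 and 58.4 CPM in the control and 46.8, 48.3 and 51.7 CPM in the PDZK1 libraries. It had a log2 fold change of -0.23 (SE 0.0562, 95% interval -0.36 to -0.11), at an edgeR adjusted p of 0.0536. NDUFC2-KCTD14 (ENSG00000259112, chr11:78016971-78079865, minus strand) went the other way, from 10.6, 13.8 and 7.72 to 24.8, 19.4 and 17.8 CPM, with a log2 fold change of 0.95 (SE 0.228, 95% interval 0.39 to 1.499) and an edgeR adjusted p of 0.0900. Neither pair of groups overlapped, and the readthrough entry held 15.2%, 19.9% and 11.7% of the reads of both entries in the control group against 34.6%, 28.6% and 25.6% in the PDZK1 group. Summed over both entries the level was 68.2 ± 1.89 CPM in the control and 69.6 ± 1.97 CPM in the PDZK1 libraries (SD, n = 3 each). The summed entries had a log2 fold change of 0.03 (95% interval -0.08 to 0.13, edgeR adjusted p 0.818), so the lower counts of NDUFC2 and the higher counts of the readthrough entry offset each other. KCTD14, the other gene of the readthrough, had a log2 fold change of -0.15 (adjusted p 0.434 with edgeR). How the counting program divided reads between these entries is not given in the sources used here.

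**Figure D5:**
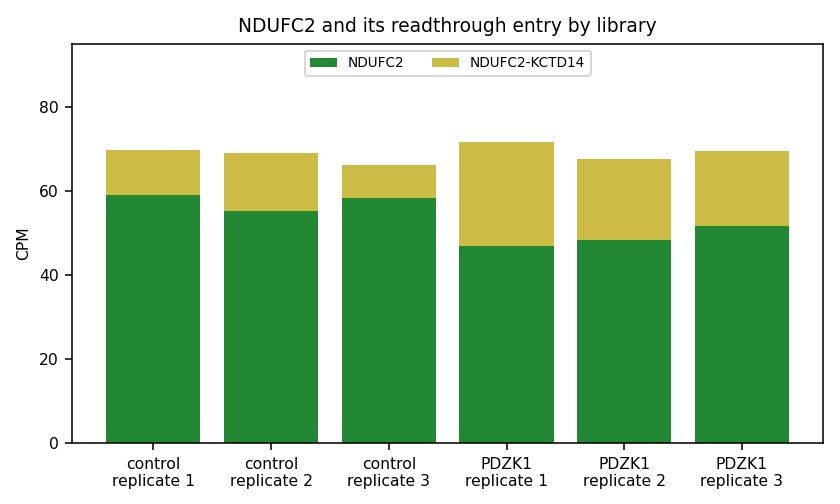
CPM assigned to NDUFC2 (green) and to the readthrough entry NDUFC2-KCTD14 (yellow), stacked, in each of the 6 libraries. The yellow share is larger in the PDZK1 libraries (25.6% to 34.6%) than in the control libraries (11.7% to 19.9%), while the height of the whole bar differs little.

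The other readthrough entry had counts in a single library. ATP5MF-PTCD1 had no counts in 5 libraries and 211 in PDZK1 replicate 1, where PTCD1 was lowest at 626 counts against 751 to 832 in the others. ATP5MF itself, an accessory subunit of the ATP synthase, had 2033 to 2328 counts in the control and 2360 to 2459 in the PDZK1 libraries. Summed over the 3 entries the level was 99.4 ± 2.57 CPM in the control and 99.7 ± 2.17 CPM in the PDZK1 libraries (SD, n = 3 each).

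In complex III the large core proteins and the Rieske protein had values below 0 and 5 of 6 small subunits values above 0, without a call. This division was chosen after the values were seen. Without control replicate 3, 1 of the 3 large proteins was higher and 2 lower, and 5 of 6 small subunits were again higher. None of the 9 passed the edgeR threshold. At an unadjusted p under 0.05 there was 1, UQCRC2, against 17.5% of all genes, and DESeq2 called the same gene. UQCRC2 (ENSG00000140740, chr16:21952660-21983660, plus strand), one of the pair of large core proteins, stood at 167, 163 and 188 CPM in the control and 154, 148 and 149 CPM in the PDZK1 libraries. The groups did not overlap, and UQCRC2 had a log2 fold change of -0.20 (SE 0.0520, 95% interval -0.32 to -0.08) at an edgeR adjusted p of 0.0701. It passed the threshold without control replicate 3, its highest library, with a smaller change of -0.14 (adjusted p 0.0431). UQCRFS1, the Rieske iron-sulfur protein, had 97.5, 99.7 and 110.3 CPM against 92.7, 102 and 90.9 CPM and a log2 fold change of -0.11 (adjusted p 0.393 with edgeR). UQCRC1, the partner of UQCRC2, had 159.6 ± 15.6 and 157 ± 6.62 CPM (SD, n = 3 each) and a log2 fold change of -0.02. Of the 6 small accessory subunits 5 were on the higher side, UQCRHL (0.12), UQCRB (0.06), UQCR11 (0.06), UQCR10 (0.02) and UQCRH (0.01), and UQCRQ (-0.06) was on the lower, all with overlapping groups. UQCRHL was too low for a close estimate, at 2.82, 2.88 and 3.33 and 3.25, 3.23 and 3.31 CPM and a 95% interval of -0.26 to 0.49.

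Complex IV members lay close to level, with a median log2 fold change of 0.00 over 12 tested members. None passed the edgeR threshold, and DESeq2 called none. At an unadjusted p under 0.05 there were 2, 1 in each direction, against 17.5% of all genes. COX7C, a small subunit on the higher side, stood at 151, 161 and 162 CPM in the control and 161, 172 and 173 CPM in the PDZK1 libraries, a log2 fold change of 0.09 (adjusted p 0.282 with edgeR). COX7A2L, whose product takes part in the joining of complexes III and IV into supercomplexes, stood at 128, 136 and 141 CPM against 124, 128 and 121 CPM, a log2 fold change of -0.12 (adjusted p 0.193 with edgeR). In both genes the groups overlapped. COX4I1, the first subunit in the order of abundance, had a log2 fold change of -0.02 (95% interval -0.11 to 0.06), and COX5A, COX5B, COX7A2 and COX8A all lay within 0.01 of 0. COX6A1 (0.06) and COX7B (0.06) were slightly higher and COX6B1 (-0.04) slightly lower. The muscle form COX7A1 had the lowest value of the complex (-0.36), but with 1.61, 1.198 and 1.305 CPM against 0.967, 0.976 and 1.26 CPM its interval ran from -0.98 to 0.26 (adjusted p 0.561 with edgeR). Without control replicate 3, 9 of the 12 were higher and 5 higher without overlap, against 19.1% of all genes.

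In complex V, 4 of 5 genes of the F1 part, which joins the catalytic head and the central stalk, had values below 0. So had 4 of 4 of the peripheral stalk, while 5 of 5 tested accessory membrane subunits had values above 0, without a call. This division was chosen after the values were seen. None of the 18 tested members passed the edgeR threshold, and DESeq2 called none. Against 9.37% of all genes, 2 members were lower at an unadjusted p under 0.05. These were ATP5F1D, the delta subunit of the central stalk, at 53.0, 54.0 and 54.9 CPM against 49.4, 47.7 and 44.9 CPM (log2 fold change -0.19, SE 0.0531, edgeR adjusted p 0.0894), and ATP5F1A, the alpha subunit, at 565, 582 and 640.3 CPM against 549, 554 and 549 CPM (-0.11, adjusted p 0.256). In both, every PDZK1 library lay below every control library. ATP5F1B, the catalytic beta subunit, had 942, 932 and 1019 CPM against 899, 929 and 919 CPM and, again without overlap, a log2 fold change of -0.07 (adjusted p 0.424 with edgeR). The gamma subunit ATP5F1C (-0.04) and the epsilon subunit ATP5F1E (0.04) had overlapping groups. All 4 genes of the peripheral stalk that holds the head still, ATP5PB, ATP5PD, ATP5PF and ATP5PO, lay between -0.09 and -0.03, and the 5 tested accessory membrane subunits lay between 0.02 and 0.07, ATP5ME being the highest (16.2, 16.5 and 17.1 against 17.1, 17.7 and 17.6 CPM, adjusted p 0.655 with edgeR). The 3 c-ring genes had log2 fold changes of -0.06, -0.01 and 0.01 for ATP5MC1, ATP5MC2 and ATP5MC3, and ATP5IF1, the inhibitor that stops the enzyme from running backwards, had 0.01. Without control replicate 3 the F1 part had 2 genes higher and 3 lower, the peripheral stalk had 1 higher and 3 lower, and the accessory subunits again had 5 of 5 higher.

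Members with and without at least 1 promoter motif had like medians. The median log2 fold change was -0.01 for the 40 tested members with at least 1 motif (17 higher, 23 lower) and -0.01 for the 27 without (12 higher, 15 lower). For the NRF1 motif it was -0.00 with (8 higher, 8 lower) and -0.01 without (21 higher, 30 lower). For the ETS motif it was -0.02 (9 higher, 12 lower) and -0.01 (20 higher, 26 lower). For the YY1 motif it was -0.05 (3 higher, 9 lower) and -0.00 (26 higher, 29 lower). These differences were not tested. Among the factors themselves, NRF1 had a log2 fold change of 0.03, GABPA -0.05 and YY1 -0.04, and of the coactivators and receptors that work with them, PPARGC1A had -0.02 and ESRRA 0.02, with TFAM, which maintains mitochondrial DNA, at 0.01. PPARGC1A stood at 54.5, 50.1 and 77.3 CPM in the control and 58.6, 64.0 and 56.8 CPM in the PDZK1 libraries, highest in control replicate 3. None of 19 regulators of mitochondrial biogenesis passed the edgeR threshold, and DESeq2 called none. At an unadjusted p under 0.05 there was 1, TWNK, against 17.5% of all genes.

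The genes that build and feed the chain were read from the same fit. Of the assembly factors tested, 19 for complex I, 4 for complex II, 9 for complex III, 27 for complex IV and 5 for complex V, edgeR called none and DESeq2 none. At an unadjusted p under 0.05 there were 1 lower for complex I, 1 lower for complex II, 1 higher and 1 lower for complex III, 1 higher and 1 lower for complex IV and 3 lower for complex V. Over all genes tested, 9.37% were lower and 8.13% higher at that p. The complex II factor was SDHAF3, which helps to mature SDHB, at 9.87, 9.06 and 10.7 CPM in the control and 7.33, 8.30 and 7.66 CPM in the PDZK1 libraries (log2 fold change -0.35, SE 0.110, edgeR adjusted p 0.130). The complex V factors were ATPAF1 (-0.15) and ATPAF2 (-0.25), chaperones of the F1 beta and alpha subunits, and TMEM242 (-0.17). Cytochrome c, CYCS (-0.04), cytochrome c1, CYC1 (-0.13), and the acyl carrier NDUFAB1 (0.04) had overlapping groups. The 78 genes of the mitochondrial ribosome had a median log2 fold change of -0.01 (36 higher, 42 lower), with none called by edgeR or DESeq2. At an unadjusted p under 0.05 there were 3, against 17.5% of all genes. Without control replicate 3 the median was 0.01 (41 higher, 37 lower).

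Among 14 tested genes of the citric acid cycle and 13 of pyruvate entry, 3 passed the threshold, all lower, against 2.41% of all genes called lower. IDH2, the mitochondrial NADP-dependent isocitrate dehydrogenase, stood at 61.3, 59.0 and 56.4 CPM in the control and 48.5, 46.7 and 49.1 CPM in the PDZK1 libraries, a log2 fold change of -0.29 (SE 0.0522 and edgeR adjusted p 0.0154). PDHB, a subunit of the pyruvate dehydrogenase that makes acetyl-CoA, stood at 109, 111 and 113 CPM against 94.5, 97.9 and 100.3 CPM (-0.19, SE 0.0381, adjusted p 0.0292). PDK1, the kinase that switches that enzyme off, stood at 44.8, 42.4 and 53.9 CPM against 31.2, 35.0 and 29.9 CPM (-0.55, SE 0.0980, adjusted p 0.0195). In none of the 3 did a PDZK1 library reach the level of a control library. Of the 14 genes of the cycle, 10 were lower and 4 higher with a median of -0.09, and 7 were lower at an unadjusted p under 0.05, against 9.37% of all genes. The median gene of the cycle deviated by -0.00, -0.01 and 0.11 log2 units in the control libraries against -0.05, -0.00 and -0.08 in the PDZK1 libraries, so the groups overlapped and control replicate 3 was highest. Without it, 9 were lower and 5 higher with a median of -0.06, and 4 were lower at an unadjusted p under 0.05, against 1521 of 13844 genes. Next to complex II in the cycle, SUCLG2 (-0.18, adjusted p 0.0578 with edgeR), SUCLA2 (-0.12, 0.209) and fumarase, FH (-0.17, 0.115), did not pass, and SUCLG1, the subunit shared by both succinyl-CoA ligases, had 0.01 (0.952). Of 13 genes of pyruvate entry 6 were higher and 7 lower, with a median of -0.02, and these counts were the same without control replicate 3. DESeq2 called 2 genes of each list, against 5.24% of all genes, and edgeR with the replicate number as a block called none. Leaving out 1 library gave 0 or 1 calls in the cycle and 0 to 2 in pyruvate entry. Each list kept its count in only 1 of these 6 fits, the one without control replicate 3. Of 10 tested entries for ADP/ATP and phosphate carriers, uncoupling proteins and outer membrane channels edgeR called none and DESeq2 called 1. At an unadjusted p under 0.05 with edgeR, 3 entries were lower, against 9.37% of all genes. These were VDAC1 (-0.13), UCP2 (-0.14) and 1 of 2 entries of SLC25A6 (-0.25). The other entry of SLC25A6 had a log2 fold change of 0.09, and in both the groups overlapped.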

How the data were processed

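RNA sequencing of ARPE-19 cells gave 6 libraries, 3 per group. Per the submitters' processing notes, reads were handled with fastp 0.20.1 and HISAT2 2.2.1 on GRCh38; the counting program, annotation release and strandedness are not given in the sources used here. The authors deposited estimated counts as whole numbers per gene and library, unscaled, and FPKM, scaled by transcript length and by fragments of the library. Another 3 columns of per-sample values in each of these files matched none of the 6 samples and were left aside.

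Counts of the Ensembl entries were fitted with the robust quasi-likelihood test of edgeR 4.0.16 in R 4.3.3 (filterByExpr, TMM scaling, groups only, 13645 genes), with Benjamini-Hochberg adjustment over all of them and a threshold of 0.05. The 853 entries named as assembled loci stayed out of the fit. The biological coefficient of variation was 0.0995. CPM use TMM-scaled library sizes, and intervals are 95% intervals of the fit. The floor of 3 counts covers counting error only, since PCR copies of 1 molecule are counted as separate reads. Coordinates are those of GENCODE release 29 on GRCh38, 1-based, and promoters those of RefSeq on GRCh38.p14.

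The members, gene lists, roles and tests were chosen with earlier results of these data known. Named genes are PDZK1, members past the threshold, the extremes of each complex by change and by FPKM, the SDH genes, the isoform pairs, genes of each list past the threshold and 6 regulators; other genes named, and the roles, were chosen after their values were seen. Alternatives were DESeq2 1.42.0, limma 3.58.1 (voom, and a trend fit of FPKM on the log2 scale with 1 or 0.1 added, kept at a mean of 0.5 or more or not filtered), other scalings and count filters, and a non-robust fit. Further ones were a block for the replicate number, a correction for gene length, each library left out, and, chosen after seeing the data, readthrough entries summed with their gene and the counts of directions without control replicate 3. Values of 1 member and of 1 marker gene are not reported here, and counts over groups of genes include them.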

Additional observations from a re-analysis of the deposited data

How the results depend on the processing

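The count of members past the threshold was 1 in the reported fit, 4 with DESeq2 (NDUFC2, NDUFC2-KCTD14, SDHB and UQCRC2) and 2 where at least 10 counts were asked of every library (NDUFC2 and SDHB). With limma-voom it was again 1, but this was NDUFC2-KCTD14. It was 0 with library totals only, with upper quartile scaling and without robust estimation, and 0 to 1 when a library was left out, the 1 being UQCRC2 without control replicate 3. Replicate numbers did not pair the libraries (correlations of same-numbered deviations -0.05, -0.06 and -0.14), and with the replicate number as a block 0 members passed, with the gene length correction also 0, and 163 and 166 of all genes against 522. Over 21 alternatives the medians of the 5 complexes lay within -0.04 to 0.01 for complex I, -0.13 to -0.06 for complex II, -0.07 to 0.06 for complex III, -0.04 to 0.04 for complex IV and -0.04 to 0.02 for complex V, so that all but complex II took both signs. From the reported fit to the furthest alternative, each median moved by less than the SD of the control libraries (0.0552, 0.0854, 0.0946, 0.0749 and 0.0760 for complexes I to V). For all except complex IV this move was larger than the SD of the PDZK1 libraries (0.0264, 0.0055, 0.0455, 0.0509 and 0.0217). The full range from lowest to highest alternative is wider than such a move. NDUFC2 turned to 0.028 where its readthrough entry was added, a setting chosen after seeing the data. Members close to 0 changed sign: ATP5MC2 with library totals (0.0046) and on log2 FPKM (0.0059, 0.0060 and 0.0059 with a pseudocount of 1, of 0.1 and unfiltered), and COX7B on log2 FPKM (-0.0036, -0.0036 and -0.0036). When a library was left out, the sign changed for ATP5MC2 (-0.027 to 0.011), ATP5MC3 (-0.024 to 0.067), ATP5F1E (-0.0017 to 0.094), COX4I1 (-0.042 to 0.0029), COX7A2 (-0.042 to 0.033), COX8A (-0.067 to 0.098), NDUFS5 (-0.013 to 0.023) and UQCRH (-0.077 to 0.059). The causes were not tested. The log2 fold change of PDZK1 stayed between 4.92 and 7.21. With 3 libraries a group and a median SE of 0.0561 log2 units, changes of a few percent were not detectable, and protein and complex activity were not analysed here.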
